A study of Homo sapiens with 4 samples.

Results

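Cytosolic ribosomal protein genes, which code for the proteins of the large and small subunits of the ribosome outside the mitochondria, were examined in breast epithelial cells with and without a short hairpin RNA against PAK1, a serine/threonine kinase that acts downstream of the small GTPases Rac and Cdc42. Members were taken by name alone: a gene belonged to the set if the array called it RPL or RPS followed by a number and at most a final A or X, or if it was RPLP0, RPLP1, RPLP2 or RPSA. The rule gave 77 of the 27193 gene names on the array, 46 of the large and 31 of the small subunit, measured by 152 of 34127 probes and 179 of 43118 spots. The cells were MCF10A.B2, a derivative of MCF10A, an immortalised breast epithelial line, that carries a form of the receptor Her2 (ErbB2) switched on by a crosslinking drug. All groups were grown with 5% horse serum, starved of serum for 3 h and given the crosslinker AP1510 for 15 min. The control group (2 arrays, labelled PAK1 wild type) and the PAK1 shRNA group (2 arrays, labelled PAK1 deficient) were each hybridised singly on a one-colour Agilent array. The hairpin was under a tetracycline-inducible promoter, and the labels do not say whether the control cells carried it uninduced or were the parental line, nor how many clones the shRNA cells came from. The series' design text speaks of duplicates from separate tumours, which the sample labels do not repeat, so the p-values below measure the spread between these arrays, which may be technical.

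Ribosomal proteins are made in near equal numbers, since each ribosome holds about the same set, and are assembled on ribosomal RNA in the nucleolus before the subunits are exported. Most of their mRNAs begin with a cytosine followed by an unbroken run of pyrimidines, the 5′ terminal oligopyrimidine (TOP) tract, through which the kinase mTOR and the RNA-binding protein LARP1 control their translation and stability. Many of these genes have numerous processed pseudogenes that keep the sequence of the mRNA, so that a probe for one of them can share signal with such copies, and the values below are uncertain to that extent.

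Of the 77 genes, 62 had an entry in the RefSeq promoter table (GRCh38.p14). A C at a listed transcription start followed by at least 4 C or T, read on the transcribed strand only, was found in 46 of the 62, or 74.2%, against 5.14% of the 27305 genes in the table. With a tolerance of 5 bases on either side of the start, the shares were 85.5% and 25.2%. The 30 bases around the start are given for members from both ends of the order of differences, for RPSA and RPS6 and for the stalk proteins, with the tract in capitals from its first base, which is the listed start. RPL17 is shown as a gene without the tract at a listed start, though its window holds a run of pyrimidines upstream of that start.
RPL27A, chr11:8682777-8682806, plus strand: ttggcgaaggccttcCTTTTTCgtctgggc
RPS3, chr11:75399503-75399532, plus strand: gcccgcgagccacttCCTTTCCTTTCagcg
RPLP0, chr12:120201097-120201126, minus strand: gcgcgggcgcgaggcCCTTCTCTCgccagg
RPL17, chr18:49492451-49492480, minus strand: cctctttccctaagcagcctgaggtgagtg
RPL34, chr4:108620561-108620590, plus strand: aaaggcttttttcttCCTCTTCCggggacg
RPS3A, chr4:151099613-151099642, plus strand: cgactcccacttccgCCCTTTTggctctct
RPSA, chr3:39406705-39406734, plus strand: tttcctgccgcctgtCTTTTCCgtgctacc
RPS6, chr9:19380222-19380251, minus strand: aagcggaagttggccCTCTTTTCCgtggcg
RPLP1, chr15:69452803-69452832, plus strand: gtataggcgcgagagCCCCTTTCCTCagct
RPLP2, chr11:809952-809981, plus strand: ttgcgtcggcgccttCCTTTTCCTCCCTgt
RPL12, chr9:127451392-127451421, minus strand: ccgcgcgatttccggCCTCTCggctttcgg
RPS18, chr6:33272060-33272089, plus strand: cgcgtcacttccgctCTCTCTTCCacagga
RPL28, chr19:55385917-55385946, plus strand: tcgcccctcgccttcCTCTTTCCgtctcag
RPS21, chr20:62387088-62387117, plus strand: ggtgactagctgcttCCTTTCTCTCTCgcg
RPS19, chr19:41860240-41860269, plus strand: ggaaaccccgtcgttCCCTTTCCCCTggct
A match of letters is a description of the window and not a mapped start in these cells. The tract stood in genes at both ends of the order of differences. The median log2 fold change was -0.59 in the 46 genes with the tract at a listed start and also -0.59 in the 16 without it there. In the 15 members without a promoter entry it was -0.70. Since 53 members had the motif within 5 bases of a start, the 16 are not known to lack the tract. The medians therefore cannot tell mRNAs with the tract from mRNAs without it. Those without it at a listed start ranged from RPL17, at -0.91, to RPS7, at -0.35.

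Normalized log2 intensities of PAK1 itself were 11.19 and 11.27 in control cells against 10.44 and 10.52 in cells with the hairpin, a log2 fold change of -0.75 (SE 0.08, limma, adjusted p = 0.000158). Both shRNA arrays lay below both control arrays for the gene that the hairpin targets. Of all probes, between 78.9% and 83.1% were well above background on an array, and all 4 arrays were on 1 slide. Keratin and adhesion markers of the labelled cell type were present, and 4 of the 10 basal epithelial markers fell while 4 rose, among them KRT5 at -1.14 and LAMB3 at 1.34, beside 31.9% of all genes called lower and 31.1% higher. Of the 4 pan epithelial markers 2 rose, KRT18 by 0.48 and CDH1 by 0.98, and KRT8 and EPCAM were not called. Of the markers of other cell types, 3 of the 4 fibroblast genes tested rose (LUM by 1.79) and PDGFRB fell, 1 of 4 leukocyte genes rose (CD68, from 8.98 and 8.83 to 12.42 and 12.89), and among the 3 endothelial genes VWF rose and PECAM1 fell by 1.56. The leukocyte genes PTPRC and CD3E stayed between 7.02 and 7.85 on all arrays and were not called, and LYZ was not among the gene names found. The part of these markers in the results below was not tested.

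The ribosomal protein genes were lower in the PAK1 shRNA cells almost without exception, and by a similar and modest amount. All 77 passed the filter on dim probes, and all were well above background on all 4 arrays. By limma with Benjamini-Hochberg adjustment over all 22022 genes tested, 76 of 77 were called lower at an adjusted p under 0.05 and 0 higher, beside 31.9% of all genes called lower and 31.1% called higher. The share of the members called lower was 98.7%. For all 77 genes both shRNA arrays lay below both control arrays, which was the case for 39.6% of all genes tested, and no member lay above in both, as 42.1% of all genes did. Over the members the log2 fold changes had a median of -0.61, with quartiles at -0.75 and -0.48, against 0.02 over all genes tested. In large subunit genes the median was -0.64 (46 of 46 called lower) and in small subunit genes -0.57 (30 of 31). Of the members, 44 were both called and lower by at least 1.5-fold, as 18.8% of all genes were. Values are per amount of labelled RNA, so a change in the number of ribosomal protein transcripts per cell cannot be told apart from a change in the amount of the other RNA, nor fewer cells of a type from less RNA per cell.

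**Figure D1:**
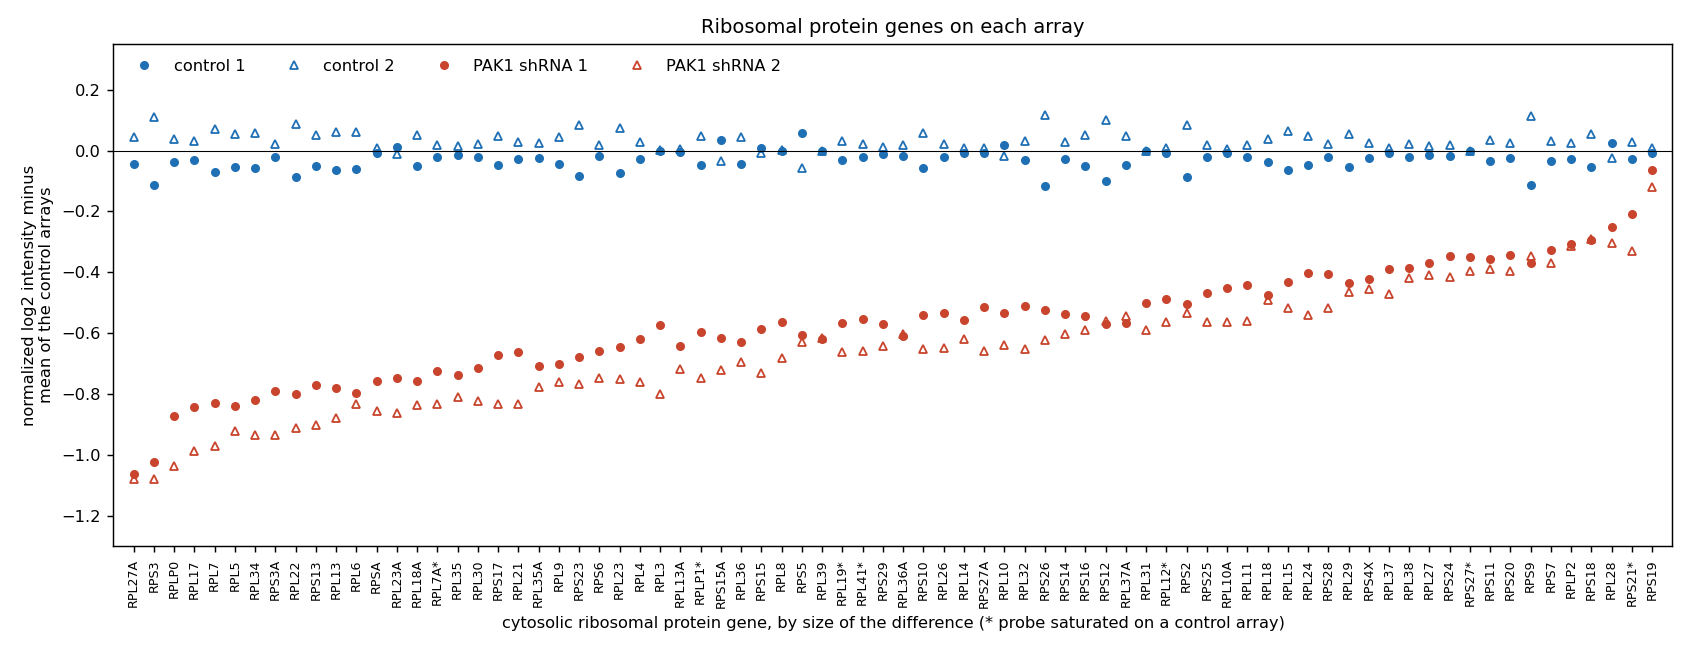
Normalized log2 intensity of 76 of the 77 cytosolic ribosomal protein genes on each array (y axis, log2 units, relative to the mean of the control arrays), with the genes ordered along the x axis by the size of the difference. Blue marks are the 2 control arrays and red marks the 2 PAK1 shRNA arrays, and for every gene drawn both red marks lie below both blue marks, from RPL27A at -1.07 to RPS19 at -0.09.

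By the probe used for each gene, the brightest without saturation where there was one, the largest fall was that of RPL27A. This large subunit protein was read by a single probe at chr11:8711092-8711151 (hg19). A second probe of RPL22 (-1.54), of RPL5 (-1.21) and of RPSA (-1.08) gave a larger fall than that of RPL27A. The log2 intensities of RPL27A were 9.03 and 9.12 in the control cells and 8.02 and 7.998 in the shRNA cells, a difference of -1.07 (SE 0.08, limma, adjusted p = 2.8e-05). Its probe was far dimmer than those used for the other members, whose lowest control mean was 15.34, in RPL22. Whether it reads the main RPL27A transcript was not tested. Across the 77 members, whose probes share the arrays, fold change and mean level had a Pearson r of 0.414, the dimmer ones tending to the larger falls. RPL27A, the dimmest member with the largest fall, weighs heavily on this r, which was not computed without it. RPS3, which lines the mRNA entry channel of the small subunit and also acts in base excision repair, read 15.29 and 15.52 against 14.38 and 14.33, a difference of -1.05 (SE 0.10, adjusted p = 8.74e-05). In both genes the shRNA signal was close to 48% of the control signal, 47.6% for RPL27A and 48.3% for RPS3. The next largest falls were those of RPLP0 (-0.95), RPL17 (-0.91), RPL7 (-0.90), RPL5 (-0.88), RPL34 (-0.88) and RPS3A (-0.86), a protein of the small subunit near the exit of the mRNA. In RPL17, at the rim of the exit tunnel, the arrays read 17.32 and 17.38 in control cells and 16.51 and 16.36 in shRNA cells. RPL34 read 17.55 and 17.66 against 16.78 and 16.67, and RPS3A 18.03 and 18.07 against 17.26 and 17.12. In each of these genes both shRNA arrays lay below both control arrays, as in all 77 members and in 39.6% of all genes tested. The genes were chosen by the size of their fall, so this is no separate evidence.

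The smallest differences were measured in RPS19, RPS21, RPL28, RPS18 and RPLP2. The probe of RPS21 was saturated on both control arrays, so under the normalization used its fall can be larger than measured. RPS19, a protein of the small subunit head and the gene most often mutated in Diamond-Blackfan anemia, was the member that did not pass the test. It read 18.21 and 18.22 in control and 18.15 and 18.09 in shRNA cells, a log2 difference of -0.09 (SE 0.07, limma, adjusted p = 0.31), and it lay above 0, at 0.11, under cyclic loess normalization. Its other probe gave -0.19 (SE 0.08, adjusted p = 0.0678). RPS18 differed by -0.29 (SE 0.08, adjusted p = 0.0141) and RPL28 by -0.28 (SE 0.07, adjusted p = 0.015). RPL28 kept both its direction and its call in only 17 of 25 other ways of processing or testing.

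The proteins of the P stalk, the flexible arm of the large subunit that recruits and activates elongation factors, all fell. All 4 are members, of which 98.7% were called lower, beside 31.9% of all genes. RPLP0, the anchor of the stalk, read 17.60 and 17.68 in the control cells and 16.77 and 16.60 in the shRNA cells, a difference of -0.95 (SE 0.09, limma, adjusted p = 8.97e-05), and its probe was printed on 10 spots. RPLP1, which forms a dimer with RPLP2, read 18.86 and 18.95 against 18.31 and 18.16, a difference of -0.67 (SE 0.09, adjusted p = 0.000474). Its dimer partner RPLP2 read 18.16 and 18.21 against 17.88 and 17.87, a smaller difference of -0.31 (SE 0.07, adjusted p = 0.00858). RPL12, at the base of the stalk, differed by -0.53 (SE 0.07, adjusted p = 0.000764), with 1 control spot saturated, so that the fall can be larger. The partners RPLP1 and RPLP2 thus differed by unequal amounts between the groups, although the difference between their fold changes was not tested and RPLP1 was saturated on 1 control array. RPLP2 kept both its direction and its call in 21 of 25 other ways of processing or testing.

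RPL5 and RPL11, which bind the 5S ribosomal RNA and, when free of the ribosome, the p53 ubiquitin ligase MDM2, both fell. RPL5 read 18.21 and 18.32 in control and 17.43 and 17.35 in shRNA cells (difference -0.88, SE 0.08, limma, adjusted p = 9.14e-05), and RPL11 read 17.47 and 17.51 against 17.05 and 16.93 (difference -0.50, SE 0.08, adjusted p = 0.00132). The wider list of ribosomal proteins reported to bind MDM2 (RPL5, RPL11, RPL23, RPL26, RPS3, RPS7 and RPS27A) fell in 7 of 7 cases with a median of -0.59, beside 31.9% of all genes and 98.7% of the members called lower. The 9 proteins at the rim of the peptide exit tunnel, where the nascent chain leaves and chaperones dock, also all fell, with a median of -0.69 and a range from -0.91 in RPL17 to -0.55 in RPL31. The pair RPL5 and RPL11 and both lists consist of members, whose median was -0.61, so these counts are not particular to them. RPL22, an RNA-binding member of this group, read 15.25 and 15.42 against 14.53 and 14.43 (difference -0.86, SE 0.09, adjusted p = 0.000188). RPL13A, which also serves in a complex that represses translation in interferon-treated myeloid cells, read 18.68 and 18.69 against 18.04 and 17.97 (difference -0.68, SE 0.07, adjusted p = 0.000216).

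In the small subunit, the proteins of the head and those of the body had similar medians. Of the 14 head proteins measured, all of them members, 13 fell, with a median of -0.58, and RPS19 was the remaining one. Beside these stand 31.9% of all genes and 98.7% of the members called lower. Of the 18 genes listed for the body and platform 17 fell, beside the same shares, with a median of -0.54. The exception was FAU, which codes for RPS30 and is the only gene of this list outside the naming rule. RPS6, the substrate of the S6 kinases downstream of mTOR, read 18.53 and 18.56 in control and 17.89 and 17.80 in shRNA cells (difference -0.70, SE 0.08, limma, adjusted p = 0.000203). RPSA, the laminin receptor precursor and a protein of the mRNA exit site, read 17.37 and 17.38 against 16.62 and 16.52 (difference -0.81, SE 0.08, adjusted p = 0.000107). RPS27A, made as a fusion with ubiquitin, read 17.45 and 17.47 against 16.95 and 16.80 (difference -0.59, SE 0.08, adjusted p = 0.00072). RPS27 read 18.76 on both control arrays and 18.41 and 18.37 on the shRNA arrays (difference -0.37, SE 0.07, adjusted p = 0.00363), with 1 control spot saturated. It moved to 0.02 under cyclic loess, and kept direction and call in 19 of 24 other ways of processing or testing. Of 18 genes mutated in Diamond-Blackfan anemia, an inherited failure of red cell production, 17 fell (31.9% of all genes did), with a median of -0.52 and the largest fall in RPL5, a share no higher than that of the members as a whole.

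Part of the signal of these genes lay at the top of the scanner range. Spots whose pixels reached the detector limit numbered 12 on control array 1 and 5 on control array 2 among the members, and 0 on each shRNA array. Over all non-control spots the control arrays had 44 and 30 and the shRNA arrays 23 and 32. A saturated control spot gives only a lower bound on the control level, so the true fall can be larger than the value given. The probe used was saturated on some control array in 8 genes, and RPL41 and RPS21 were among those saturated on both control arrays. RPL41, a very short and basic peptide, measured 1.52-fold higher in control than in shRNA cells (log2 means 19.00 and 18.40, limma, adjusted p = 0.00047). RPS21 measured 1.21-fold higher (18.85 and 18.59, adjusted p = 0.0233). These folds are lower bounds only under the normalization used, since they changed with the scaling. RPL41 was not called with the 75th percentile (-0.32, adjusted p = 0.0751) or cyclic loess (-0.19, adjusted p = 0.0768). The direction of RPS21 turned under other scalings, to 0.04 with the 75th percentile and 0.21 with cyclic loess. RPS21 kept both its direction and its call in only 12 of 23 other ways of processing or testing. In the 69 genes whose probe used had no saturated spot, 68 were called lower and the median was again -0.61. Counting every probe, 12 members had a saturated spot.

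**Figure D2:**
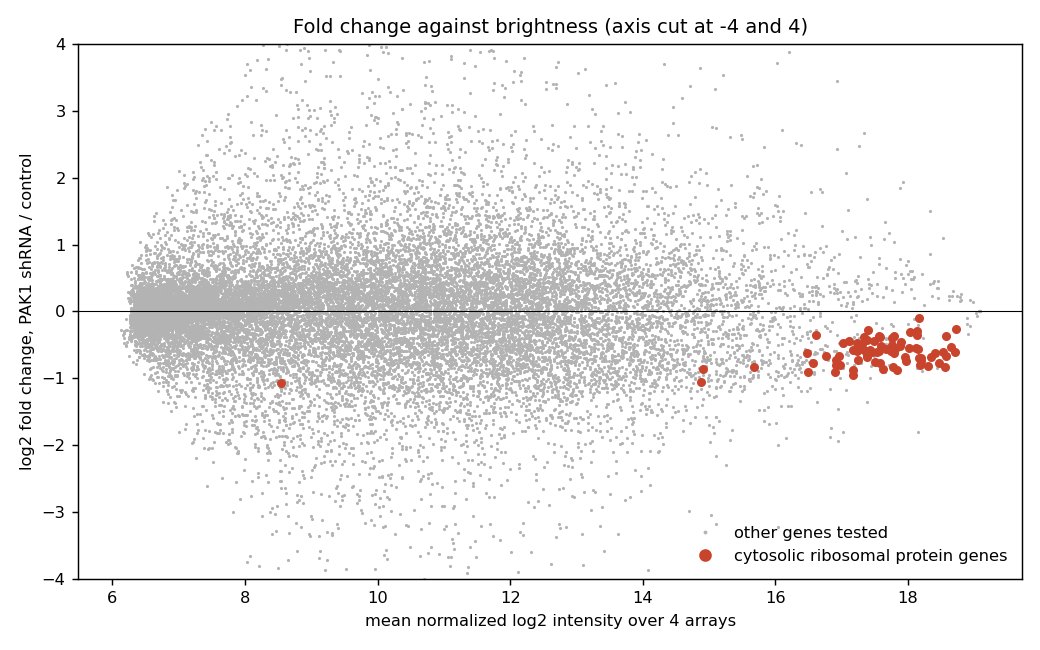
Log2 fold change (PAK1 shRNA over control, y axis, cut at the ends of the axis) against the mean normalized log2 intensity over 4 arrays (x axis) for the genes tested, with cytosolic ribosomal protein genes in red. At log2 intensities of 17 or more, 62 of 63 ribosomal protein genes were called lower with a median of -0.58, whereas other genes there lay on both sides of 0 with a median of 0.18. Under quantile normalization the values of the ribosomal protein genes and of the other bright genes are not independent.

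Before normalization the difference was wider. Member spots had a median intensity of 230158 and 208774 in control cells against 97974.3 and 93955.9 in shRNA cells, while the median over all spots was 500.946 and 383.5 against 326.101 and 318.659. On the log2 scale the unscaled shift from control to shRNA was -1.19 for the members and -0.42 for all spots. The Agilent spike-in transcripts, added in fixed amounts to the labelling reaction, shifted by -0.25 over 7 probes, with single probes between -0.27 and -0.21. Scaling the arrays to these spots gave a median of -0.82 for the members, with 74 called lower (28.5% of all genes). Cyclic loess, which removes any trend with brightness, gave -0.41 with 67 called lower (30.5% of all genes) and 74 below 0. The position at the bright end was shared by 165 other genes at log2 17 or more, of which 50 (30.3%) were called lower and 66 higher. Quantile normalization gives every array the same set of values, so falls of many bright members can lift other bright genes. Those genes are therefore not an independent comparison.

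**Figure D3:**
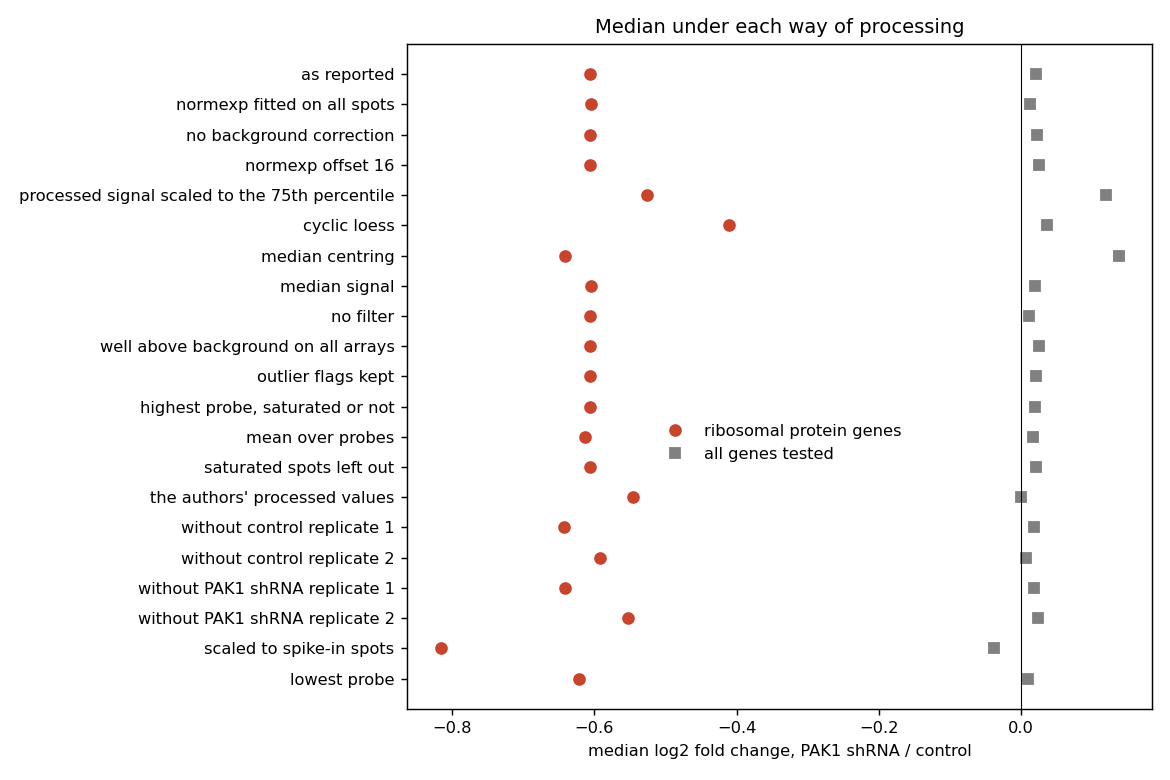
Median log2 fold change (PAK1 shRNA over control, x axis) of the cytosolic ribosomal protein genes (red circles) and of all genes tested (grey squares) under each way of processing the arrays (rows). The red circles range from -0.82 with scaling to spike-in spots to -0.41 with cyclic loess, while the grey squares stay between -0.04 and 0.14.

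Different probes of a gene mostly moved together. Of the 152 member probes, 145 were called lower, 3 higher and 4 in neither direction, beside 32.7% of the 27517 probes tested called lower and 31.2% called higher. The median over all member probes was -0.68. Of the 39 genes with several probes, 34 had every probe called lower. The share over all genes with several probes was not computed, so this count is not known to be particular to the members. In 21 of the 39 the probe used, the brightest one without saturation, showed the smallest fall of its gene. RPL22 was an example, with -0.86 in the probe used and -1.54 (SE 0.10, limma, adjusted p = 1.65e-05) in a second probe at chr1:6246039-6246098. Of the probes, 59 span a gap in the genome, as probes across exon junctions do, and a probe for RPL21 lies on chromosome 10, away from the gene.

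The 3 probes that were called higher belonged to RPL10, which joins the large subunit late in its assembly, and RPL28. The final 30 bases of the 4 RPL28 probes and of the RPL10 probes that differed in direction are given, with hg19 coordinates of the whole probe, since these genes are the ones whose probes disagree in sign. Capitals mark AATAAA, the signal for polyadenylation, which occurred in 11.2% of member probes and 7.67% of all array probes, read as the probe is printed.
RPL10, used, chrX:153629189-153629249: cttaatactcaccAATAAAttctacttcct
RPL10, higher, chrX:153630505-153630564: agccaaaatgtttcccggtgtttgctggtt
RPL28, used, chr19:55899332-55899391: cagcagcatcagacacatgatccgcaagaa
RPL28, lower, chr19:55903389-55903448: agccagttactagAATAAAatcatctactt
RPL28, higher, chr19:55898336-55898395: ggtggggatggatggtttcatcccacaggt
RPL28, higher, chr19:55899028-55899087: tcatggtggacagaattgggctatgagtgt
In RPL10 the probe used, which holds AATAAA near its end, read 17.74 and 17.70 in control and 17.19 and 17.08 in shRNA cells, a difference of -0.58 (SE 0.08, limma, adjusted p = 0.000485 over probes). The probe that rose lies downstream of that position and read 7.60 and 7.71 against 8.37 and 8.44, a difference of 0.75 (SE 0.08, adjusted p = 0.000166). Of the further RPL10 probes, 1 fell by 0.78 and 1 fell by 0.69.
In RPL28 the probe used read 17.55 and 17.51 against 17.28 and 17.23 (difference -0.28, SE 0.07, adjusted p = 0.0142). A probe assigned to another RPL28 transcript read 12.70 and 12.68 against 12.08 and 11.88 (difference -0.71, SE 0.09, adjusted p = 0.000382). The probes that rose, each assigned to a further transcript of the gene, read 7.06 and 7.20 against 7.38 and 7.55 (difference 0.33, SE 0.09, adjusted p = 0.0169) and 9.25 and 9.37 against 10.08 and 10.21 (difference 0.84, SE 0.09, adjusted p = 0.000129). The mean over the RPL28 probes, each counted equally, was at 0.05, so the direction given for the gene rests on the probe chosen. The rising probes of RPL10 and RPL28 were far dimmer than the probes used for these genes. The RPL28 probe at 7.06 to 7.55 read in the range of the leukocyte genes PTPRC and CD3E, 7.02 to 7.85. What the dim probes measure was not tested. The remaining probes that were not called were a pair for RPS19, 1 for RPL31 (-0.09) and 1 for RPS23 (-0.08), and the last pair stood beside other probes of the same genes that fell.

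Genes that stand close to the ribosomal proteins moved less evenly. Of the paralogs, which are near copies with restricted or alternative use, 5 of 7 tested fell and 0 rose, with a median of -0.70, beside 31.9% and 31.1% of all genes. RPL26L1 differed by -0.90 (SE 0.10, limma, adjusted p = 0.000193), RPL10L by -0.77 (SE 0.12, adjusted p = 0.00119), RPL22L1 by -0.75 (SE 0.09, adjusted p = 0.000417), RPL7L1 by -0.70 (SE 0.07, adjusted p = 0.000151) and RPL36AL by -0.56 (SE 0.08, adjusted p = 0.000595). RPL3L, the form used in striated muscle, gave -0.21 (adjusted p = 0.0553), and RPS27L, a target of p53, gave -0.14 (adjusted p = 0.199), and neither was called, while RPL39L did not pass the filter on dim probes. Since RPL10L and RPL36AL resemble RPL10 and RPL36A closely, their probes may share signal. FAU, whose product holds RPS30 fused to a ubiquitin-like protein, read 17.20 and 17.28 against 17.17 and 17.20 (difference -0.05, SE 0.08, adjusted p = 0.575).

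Most other mRNAs known to carry a TOP tract also fell. Of 24 such genes listed, 20 fell and 2 rose, with a median of -0.68, beside 31.9% and 31.1% of all genes. EEF1A1, the elongation factor that brings aminoacyl-tRNA to the ribosome, read 17.25 and 17.47 in control and 16.61 and 16.52 in shRNA cells (difference -0.80, SE 0.10, limma, adjusted p = 0.000364). EEF2, which moves the ribosome along the mRNA, differed by -0.98 (SE 0.10, adjusted p = 0.000154). GNB2L1, the scaffold RACK1 on the small subunit head, differed by -0.95 (SE 0.09, adjusted p = 8.55e-05), TPT1, the translationally controlled tumor protein, by -0.62 (SE 0.08, adjusted p = 0.00043) and PABPC1, the poly(A)-binding protein, by -0.41 (SE 0.08, adjusted p = 0.0042). Among all genes outside the members with a promoter entry, 43.6% of the 739 with the tract at a listed start were called lower and 30.4% higher, and of the 10669 without it 35.4% were lower and 32.3% higher.

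Of the regulators of TOP mRNA translation, 8 of 14 tested fell and 2 rose, with a median of -0.33, beside 31.9% and 31.1% of all genes. EIF4EBP1, which blocks the cap-binding protein EIF4E until mTOR phosphorylates it, read 13.60 and 13.69 in control and 11.72 and 11.61 in shRNA cells (difference -1.98, SE 0.08, limma, adjusted p = 2.91e-06), and EIF4E itself differed by -1.07 (SE 0.11, adjusted p = 0.000134). LARP1B, a relative of LARP1, differed by -1.36 (SE 0.09, adjusted p = 1.71e-05), and EIF4EBP2 by -0.89 (SE 0.09, adjusted p = 0.000114). MLST8, a subunit of mTOR complexes, fell by 0.83, and RHEB, the GTPase that activates mTOR, fell by 0.72. LARP1 fell by 0.36 and RPS6KB1, an S6 kinase, fell by 0.29. The TSC1 gene, whose product restrains RHEB, rose by 0.83 (SE 0.08, adjusted p = 0.00015), and RPTOR, the subunit that presents mTORC1 substrates, rose by 0.50 (SE 0.08, adjusted p = 0.00104). MTOR (-0.15), TSC2 (-0.04), RPS6KB2 (-0.11) and EIF4G1 (-0.16) were not called. The difference of RPS6KB1 turned to 0.08 with the dimmest of its probes. RPS6KB1 and LARP1 each kept both direction and call in only 20 of 25 other ways of processing or testing. RPTOR was not called with scaling to spike-in spots (0.25, adjusted p = 0.354).

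Of 50 factors that build ribosomes, 29 fell and 5 rose, with a median of -0.30, and these counts and those that follow stand beside 31.9% of all genes called lower and 31.1% called higher. FBL (fibrillarin), the methyltransferase of the box C/D particles, had the largest fall, from 16.79 and 16.89 to 15.19 and 15.14 (difference -1.68, SE 0.08, limma, adjusted p = 4.49e-06). NHP2 of the box H/ACA particles fell by 1.14 and BOP1, which acts in large subunit processing, fell by 1.09. The abundant nucleolar proteins NPM1 (-0.90, SE 0.08, adjusted p = 9.46e-05) and NCL (-0.94, SE 0.07, adjusted p = 4.11e-05) also fell. BMS1 (1.00), WDR75 (0.90) and SDAD1 (0.77), which act in the processing of small or large subunit precursors, rose. Of 15 genes of RNA polymerase I and its factors, which transcribe the ribosomal RNA, 10 fell and 1 rose, with a median of -0.45. Mitochondrial ribosomal proteins fell in 58 of 75 cases and rose in 6, with a median of -0.60 and a range from -1.63 to 0.84, so their median was close to that of the cytosolic genes but single genes lay much farther apart. Proteasome subunits, taken as another large complex of abundant proteins, fell in 25 of 38 cases and rose in 8, with a median of -0.51.

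**Figure D4:**
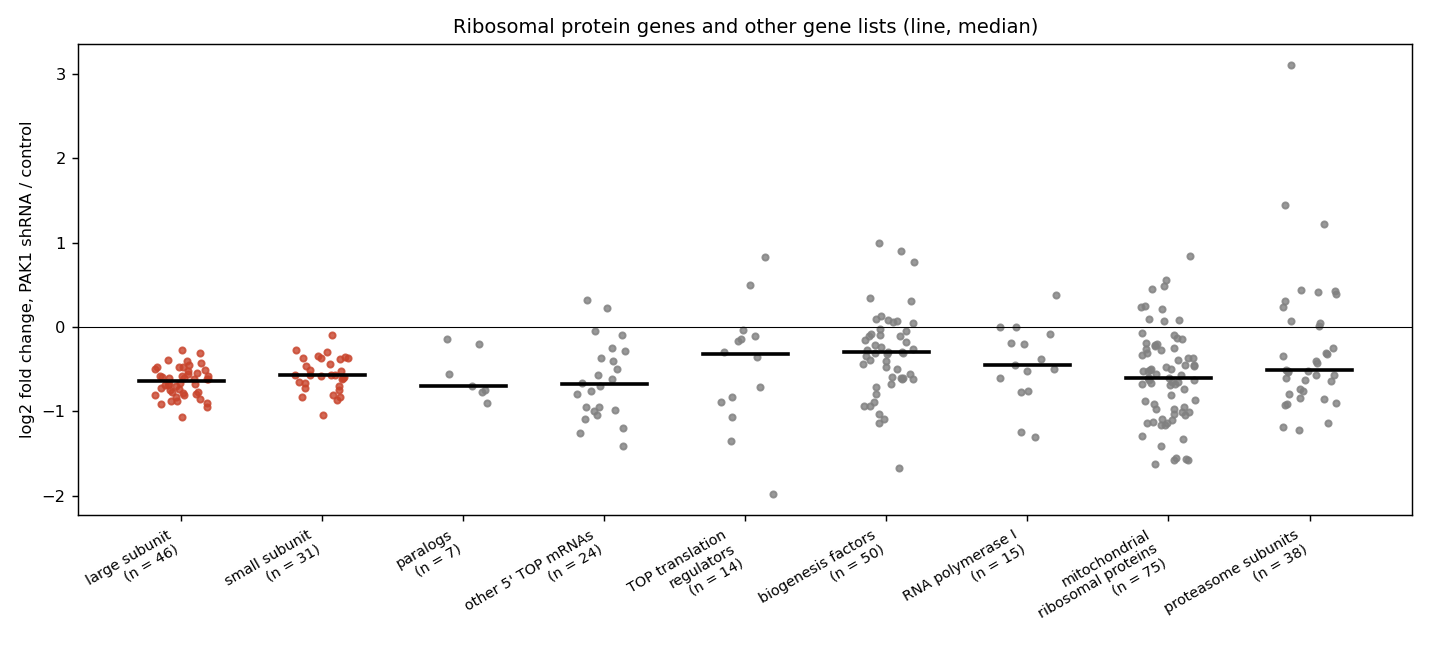
Log2 fold change (PAK1 shRNA over control, y axis) of single genes in the large and small subunit members (red) and in other gene lists (grey), with the median as a black line and the number of genes tested below each name. By the probe used for each gene, the members form a band below 0 from -1.07 to -0.09, whereas mitochondrial ribosomal proteins, proteasome subunits and biogenesis factors extend above 0. Over all probes of the members the range was -1.54 to 0.84, and the lists were not matched for brightness.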

How the data were processed

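Total RNA of 4 samples (2 control, 2 PAK1 shRNA) was labelled with Cy3 from 500 ng and hybridised to one-colour Agilent arrays, which the authors processed with Feature Extraction (9.5 in the submitters' notes). The deposited scanner files hold spot intensity on a linear scale, and a deposited value table holds the authors' normalized log2 values, used as an alternative. Mean signals were corrected with normexp (offset 50), its parameters fitted without spots whose background was flagged, and quantile normalized without control spots. Flagged spots were left out, saturated ones kept. A probe was kept if well above background on both arrays of a group, and each gene took its brightest probe without a saturated spot. Where each of its probes had a saturated spot, as in 8 members, the brightest was taken. Genes were tested with limma 3.58.1 (R 4.3.3), Benjamini-Hochberg adjustment and a threshold of 0.05, checked on simulated data. Far fewer genes were changed in the simulation than were called here, so its recovery of changes does not carry over to these data. An exact permutation test of 2 against 2 arrays cannot go below p = 0.333. The number of arrays limits the precision. Same-numbered arrays did not deviate together (correlation 0.00575 over 25898 probes). Members, gene lists and tests were chosen with earlier results of these data known. Genes named were PAK1, the 8 largest falls and rises (there were 0 rises), preset members, saturated members, members whose probes went in opposite directions, and preset or called genes of the other lists; RPS18, RPL12, RPS7 and the genes that mark ends of ranges were named after their values were seen. Background correction, normalization, signal, filter, flags, probe choice, saturation, test, threshold, replicate block and left-out arrays were varied. Some items, a member among them, are not reported here by name.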

Additional observations from a re-analysis of the deposited data

How the results depend on the processing

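The count of members called lower stayed between 67 and 76 of those tested in the alternatives that kept the threshold on the test alone. By at least 1.5-fold, 44 were also lower (18.8% of all genes). Scaling of the processed signal to its 75th percentile gave 68 (29.1% of all genes), and cyclic loess gave 67 (30.5%). Median centring gave 74 (30.4%), and the authors' processed values 67 of 69 (33.1%). Without saturated spots the count was 73 of 74 (31.9%), and at an adjusted p under 0.01 it was 72 (26.7%). The methods' t-test gave 67 after adjustment (21.6%) and 74 before it (28.3%). Leaving out an array, which left 1 array in a group, gave a median of -0.64 to -0.55. The replicate block gave 76 (32.2%). The median moved to -0.53 with the 75th percentile, -0.41 with cyclic loess, -0.55 with the authors' values and -0.82 with scaling to spike-in spots, which was chosen after seeing the data. The median of all genes was 0.12 with the 75th percentile and 0.14 with median centring, where the members stood at -0.64. With the dimmest probe of each gene, also chosen after seeing the data, 2 members were called higher, RPL10 at 0.75 and RPL28 at 0.33, and RPS6KB1 stood at 0.0751. Other reversals were RPS21 at 0.044 and RPS27L at 0.0069 with the 75th percentile, RPS19 at 0.11, RPS27 at 0.0198, RPS21 at 0.21, RPS27L at 0.085 and FAU at 0.096 with cyclic loess, FAU at 0.041 with the authors' values and RPL28 at 0.047 with the mean over probes. The cause was not tested. For named genes, 1302 of the values recomputed stayed on the same side of 0 and of the threshold, 52 kept the direction but missed it, 1 newly passed and 12 reversed. The slide could not be used as a block, since there was 1 slide. Saturation limits what the arrays show of the brightest members.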
